A study of Mus musculus with 4 samples.

Results

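The immunity-related GTPases (IRG proteins) are a family of interferon-inducible GTPases of the mouse. Of the 55385 genes of the deposited count table, 7 were taken as the family's members here, by joining the Ensembl identifier of each row to its symbol. These were the regulators Irgm1, Irgm2 and Igtp (Irgm3), and the effectors Iigp1 (Irga6), Ifi47 (Irgd), Tgtp1 (Irgb6) and its neighbour Tgtp2. The RNA came from 4TO7 cells, a mouse mammary carcinoma line, taken from tumors of Balb/c mice, the strain given for all 4 libraries. In the resistant group were 2 libraries, from tumors that resisted an antibody against the checkpoint ligand PD-L1, and in the control group 2 libraries, from control tumors. The labels disagree on treatment: every library, control or resistant, carries a treatment label reading untreated and a protocol entry naming in vivo anti-PD-L1, so what the control tumors received is not known here. Tumor tissue was dissociated with enzymes (hyaluronidase, collagenase, dispase, DNase), the labels name no step that separated carcinoma cells from host cells, and a single carcinoma line stands for the disease. The series calls the libraries biological replicates without naming the animals, so each p-value reflects the spread among these 4 libraries only, which may be technical.

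As background, IRG proteins act inside single cells against microbes that live in a vacuole, such as Toxoplasma gondii and Chlamydia. The effectors bind GTP, gather on the membrane of the vacuole and break it, while the Irgm-type regulators sit on the cell's own membranes (Golgi, lysosomes, endoplasmic reticulum and lipid droplets) and hold the effectors inactive there. Transcription of the family in most cells depends on interferon: interferon gamma acts at gamma-activated sequences (GAS), and type I interferon, through a complex that holds Stat2 and Irf9, at interferon-stimulated response elements (ISRE).

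The sequences before the transcription starts were examined because these elements are what the members are known to share. RefSeq promoters (GRCm38.p6, 250 bases before to 50 after the start, the C57BL/6J reference and not the Balb/c genome) were matched for 6 of the 7 members, all but Iigp1. The ISRE was searched as GAAA, any 2 bases and GAAA again, and the GAS as TTCNNNGAA, on both strands. Windows of 36 bases around the first ISRE match of 5 members are printed here on the strand of the gene, with the letters of GAS and ISRE matches in capitals.
Irgm1, chr11:48871434-48871469, minus strand: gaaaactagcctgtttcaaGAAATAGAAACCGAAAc
Irgm2, chr11:58214894-58214929, plus strand: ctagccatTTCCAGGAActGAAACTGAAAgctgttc
Igtp, chr11:58199503-58199538, plus strand: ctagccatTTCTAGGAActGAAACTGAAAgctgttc
Tgtp1, chr11:48992307-48992342, minus strand: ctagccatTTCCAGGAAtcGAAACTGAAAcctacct
Tgtp2, chr11:49064266-49064301, minus strand: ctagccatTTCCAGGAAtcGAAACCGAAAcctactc
In Irgm2, Igtp, Tgtp1 and Tgtp2 a GAS match stood 2 bases before an ISRE match, on the same strand. That combined string, TTCNNNGAA, 2 bases and the ISRE, whose spacing was chosen after the members' sequences were seen, was found in 5 of 32851 RefSeq promoters of the same length (0.0152%), and the fifth was that of another IRG gene, Gm12185. By contrast, an ISRE match alone was in 1131 promoters (3.44%), a GAS match in 2726 (8.3%), and both anywhere in the window in 149 (0.454%). Some of the promoters with the combined string resemble each other over their whole 300 bases, so the 5 are not independent finds. Aligned identity was 73.5% for Igtp and Irgm2 and 67.7% for Tgtp1 and Tgtp2. It was 51.7% for Irgm1, which lacks the string, and Irgm2, and nearly the same for Igtp and Tgtp2. The part of this general likeness in the shared string was not tested.

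Irgm1 differed from the other regulators in having 2 overlapping ISRE matches, 30 to 15 bases before its start, and no GAS match. The promoter of Ifi47 held neither string in this window, and GENCODE lists further starts downstream for that gene. To show the contrast at greater length, the 150 bases before the start are given for Irgm1, Irgm2, Tgtp2 and Ifi47, with the same matches in capitals.
Irgm1, chr11:48871421-48871570, minus strand: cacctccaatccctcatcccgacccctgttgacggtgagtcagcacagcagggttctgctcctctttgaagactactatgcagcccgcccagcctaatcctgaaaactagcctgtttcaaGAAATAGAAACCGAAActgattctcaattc
Irgm2, chr11:58214827-58214976, plus strand: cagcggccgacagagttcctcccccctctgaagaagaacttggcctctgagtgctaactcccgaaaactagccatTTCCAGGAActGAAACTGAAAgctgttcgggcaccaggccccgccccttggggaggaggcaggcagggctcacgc
Tgtp2, chr11:49064213-49064362, minus strand: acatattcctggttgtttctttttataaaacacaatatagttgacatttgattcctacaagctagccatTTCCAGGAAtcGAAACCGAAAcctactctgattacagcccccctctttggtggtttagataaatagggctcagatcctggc
Ifi47, chr11:49076437-49076586, plus strand: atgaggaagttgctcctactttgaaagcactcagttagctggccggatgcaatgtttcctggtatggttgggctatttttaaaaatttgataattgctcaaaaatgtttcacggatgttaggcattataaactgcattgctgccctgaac
A letter match is a description of the sequence, not a measured binding site, and no factor's binding was measured in these libraries. The map of matches shows the combined string at different distances from the start: it began 45 bases before the start in Igtp, 75 in Irgm2, 81 in Tgtp2 and 88 in Tgtp1. For Irgm2, Tgtp2 and Gm12250 the 50 bases after the RefSeq start were not matched in a GENCODE transcript. Distances for these genes rest on the RefSeq start alone.

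**Figure D1:**
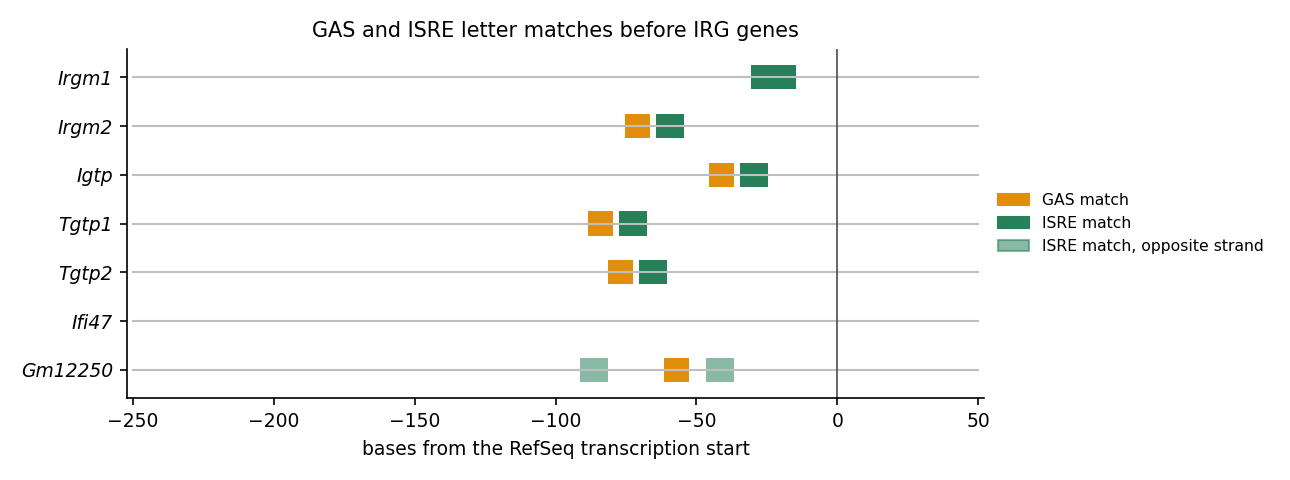
Position of GAS and ISRE letter matches in the RefSeq promoters of 6 IRG members and of Gm12250 (Irgb10), in bases from the transcription start (vertical line). Orange boxes are GAS matches, green boxes ISRE matches and pale green boxes ISRE matches on the opposite strand. In Irgm2, Igtp, Tgtp1 and Tgtp2 the 2 boxes stand side by side, and Ifi47 has none.

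The libraries held 45666470 to 49592054 counted reads, and limma was run on the 14238 genes whose normalized counts averaged at least 10. The median log2 fold change (resistant minus control) of all tested genes was 0.002. All 7 members fell in the resistant libraries, with Benjamini-Hochberg adjusted p-values from limma of 0.000336 to 0.0344. Of all tested genes, 4.73% were called lower and 5.32% higher. In each of the 7 members both resistant libraries lay below both control libraries, as did 28.3% of all tested genes. Of the 7 members, 6 had a mean of at least 10 in the resistant libraries alone, and Tgtp1 was tested only through its control level. The members' median log2 fold change was −2.50, between −4.05 for Iigp1 and −1.58 for Irgm1. In bulk RNA, fewer cells that express a gene and less RNA of it per cell cannot be told apart. Normalized counts are reads divided by a size factor per library, and fold changes are on the log2(normalized count + 1) scale, which understates the change of low genes.

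**Figure D2:**
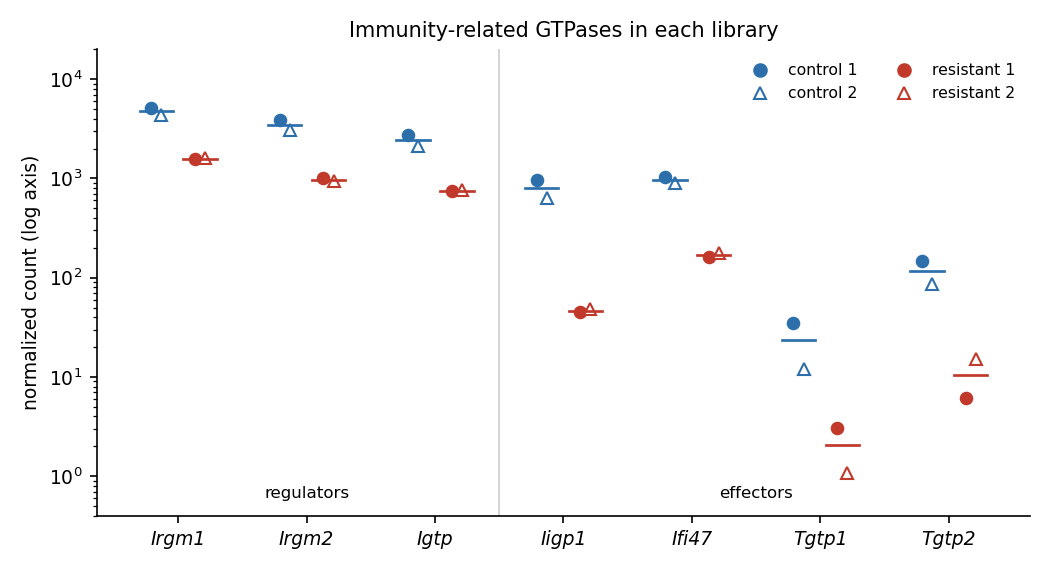
Normalized counts (log axis) of the 7 IRG members in the 2 resistant (red) and 2 control (blue) libraries, 1 point per library, with the group mean as a bar. In every gene the resistant points lie below the control points, and the distance is widest in Iigp1 (44.8 and 48.3 against 964 and 637).

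The 3 regulators fell to about the same degree. Irgm1 (ENSMUSG00000046879.7, chr11:48861968-48871683, minus strand), which binds Golgi and lysosomal membranes, had 1552 and 1597 normalized counts in the resistant libraries and 5147 and 4304 in the controls. Its mean was 1575 ± 31.8 (SD, n = 2) against 4725 ± 596, and 33.3% of the control level remained. The log2 fold change was −1.58 ± 0.12 (SE, limma), with a 95% interval of −1.87 to −1.29 and an adjusted p of 0.000589. The resistant libraries were nearly equal for Irgm1, and the controls differed more from each other, with no overlap between groups. Irgm2 (ENSMUSG00000069874.7, chr11:58199618-58222782, plus strand), a Golgi-associated regulator, had 1013 and 932 normalized counts in the resistant libraries and 3864 and 3069 in the controls. Irgm2 changed by −1.82 ± 0.14 on the log2 scale (limma adjusted p = 0.000589), and 28.1% of its control level remained. Both resistant libraries lay far below either control for Irgm2. Igtp (ENSMUSG00000078853.8, chr11:58199556-58207591, plus strand), the regulator of the endoplasmic reticulum and lipid droplets, had 741 and 768 normalized counts against 2762 and 2134. Its log2 fold change was −1.69 ± 0.15 (limma adjusted p = 0.000967), and 30.8% of the control level remained. The 3 regulators' 95% intervals overlapped one another, and their fold changes spanned −1.82 to −1.58, with a median of −1.69.

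The 4 effectors had log2 fold changes further from 0 in their point estimates, though with a pseudocount of 10 Tgtp1 stood at −1.38, nearer 0 than the regulators. Iigp1 (ENSMUSG00000054072.12, chr18:60376027-60392634, plus strand), the best studied of the effectors that coat the Toxoplasma vacuole, had 44.8 and 48.3 normalized counts in the resistant libraries and 964 and 637 in the controls. The mean was 46.6 ± 2.42 (SD, n = 2) against 800 ± 231, so that 5.82% of the control level remained. Its log2 fold change was −4.05 ± 0.24 (SE, limma; 95% interval −4.61 to −3.48; adjusted p = 0.000336). The lower control library was still more than 10 times either resistant library for Iigp1, and no other member fell as far in its point estimate. Ifi47 (ENSMUSG00000078920.3, chr11:49076587-49096974, plus strand), an effector that also loads onto vacuoles, had 163 and 178 normalized counts against 1042 and 897. Ifi47 changed by −2.50 ± 0.17 on the log2 scale (limma adjusted p = 0.000415), and 17.6% of its control level remained. The replicates of Ifi47 lay close together in both groups, and its 95% interval of −2.89 to −2.11 lay wholly below those of Irgm1 (−1.87 to −1.29) and Igtp (−2.04 to −1.33), not of Irgm2 (−2.16 to −1.49).

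Tgtp1 and Tgtp2 encode near-identical effector GTPases, of which Irgb6 is known to reach the vacuole early. Tgtp2 (ENSMUSG00000078921.3, chr11:49057194-49064206, minus strand) had 6 and 14 reads in the resistant libraries and 153 and 86 in the controls. Its normalized means were 10.6 ± 6.29 (SD, n = 2) and 117 ± 42.6, with a log2 fold change of −3.42 ± 0.47 (SE, limma; adjusted p = 0.00595). The higher resistant library held well below the lower control, although the libraries of each group differed by more than 1.5 times from each other. Tgtp1 (ENSMUSG00000078922.9, chr11:48985327-48994172, minus strand) had 3 and 1 reads in the resistant libraries against 36 and 12. Its log2 fold change was −2.90 ± 0.65 (SE, limma; adjusted p = 0.0344), and the ratio of control to resistant counts was 11.3, with a 95% exact interval of 4.14 to 43.1 that covers counting error only. Tgtp1 thus rested on few reads: its adjusted p was 0.146 without resistant replicate 2, 0.135 with no filter on low genes and 0.0566 with a pseudocount of 10. Tgtp2 had an adjusted p of 0.0633 with no filter.

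The counts of that pair cannot be read as separate genes. Of the 50-base stretches of Tgtp1 exons, 79.4% also occur in Tgtp2, and 85.8% of those of Tgtp2 occur in Tgtp1. The sources used here do not state how counting treated reads that match both. Summed, the pair had normalized counts of 9.2 and 16.1 in the resistant libraries against 181.6 and 98.8 in the controls, with a log2 fold change of −3.36 ± 0.41 (SE, limma; adjusted p = 0.00354). The sum kept the groups apart, as each gene alone did. In the other members most 50-base stretches were found in no other gene: 99.6% in Irgm1, 98.3% in Iigp1, 95.2% in Ifi47, 92.2% in Irgm2 and 88.2% in Igtp. Igtp and Irgm2 also share 162 exon bases on the same strand, and Ifi47 shares 111 with the olfactory receptor gene Olfr56 on its own strand and 106 with Gm12188 on the other strand, so a few of their reads may belong to either gene.

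**Figure D3:**
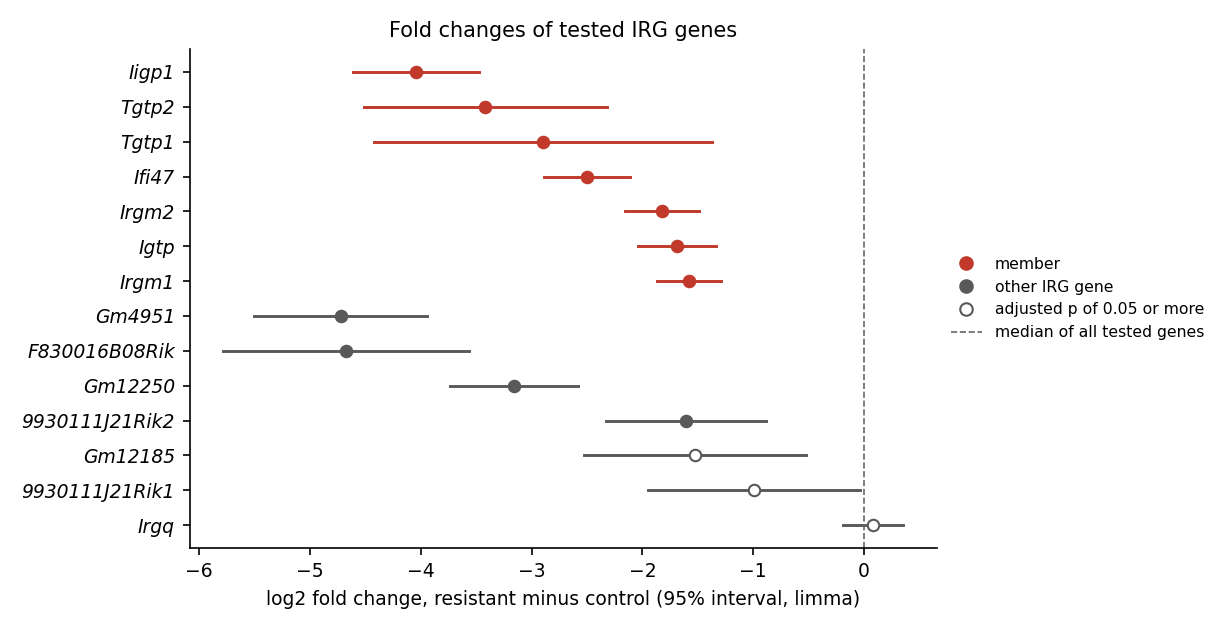
Log2 fold change (resistant minus control) with its 95% limma interval for the 7 IRG members (red) and 7 other tested IRG genes (grey; open circles have an adjusted p of 0.05 or more). The members lie between −4.05 and −1.58, the effectors further from 0 than the regulators, and Irgq lies at 0.08.

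The composition of the family's RNA differed between the groups. The 7 members together took 3457 and 3300 reads in the resistant libraries and 14532 and 11045 in the controls, which is 73.6 and 72.3 RPM against 293 and 239 RPM. Effectors made up 6.16% and 6.85% of these member reads in the resistant libraries and 15.7% and 14.7% in the controls. In both groups most of the family's reads thus came from the 3 regulators, and the effector share was lower in each resistant library than in either control. The median effector log2 fold change minus the median regulator log2 fold change was −1.47. Over the 4 pairs of 1 resistant and 1 control library its SD was 0.356. Each library enters more than 1 pair, so this is not the spread of 4 independent values. The difference was −0.85 with a pseudocount of 10 and −1.73 with a minimum mean of 50, where Tgtp1 was not tested. In the main fit the effector median lies between the values of Tgtp1 and Tgtp2, whose counts cannot be read as separate genes. Within a library, Iigp1 stood at −5.08 and −5.02 log2 units relative to Irgm1 in the resistant libraries and at −2.42 and −2.75 in the controls. Ifi47 relative to Irgm1 stood at −3.24 and −3.16 against −2.30 and −2.26. Both effectors were thus further below Irgm1 in the resistant libraries than in the controls. Igtp relative to Irgm1 moved little, at −1.07 and −1.06 against −0.90 and −1.01. Irgm2 relative to Irgm1 moved somewhat more, at −0.62 and −0.78 against −0.41 and −0.49, without overlap. With 2 libraries in each group an exact two-sided permutation test cannot give a p under 0.333, so these ratios are given as values.

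Per kilobase of exon, Igtp was the highest member in the controls (normalized counts per kilobase of 1366 and 1055), followed by Irgm2 (1047 and 832), Irgm1 (886 and 741), Ifi47 (421 and 363), Iigp1 (165 and 109), Tgtp2 (50.03 and 29.5) and Tgtp1 (10.8 and 3.78). Irgm2 was above Irgm1 within each control library, although their values overlapped across the control libraries. Each of the other neighbours in that order was separated, apart from Tgtp2 and Tgtp1. That pair shares most of its sequence and cannot be ranked. In the resistant libraries Igtp was again first (366 and 380), and Irgm1 (267 and 275) and Irgm2 (275 and 253) overlapped. Ifi47 (65.9 and 72.0), Iigp1 (7.70 and 8.29), Tgtp2 (2.08 and 5.11) and Tgtp1 (0.954 and 0.335) followed. The order of the members was therefore alike in both groups, apart from Irgm1 with Irgm2 and Tgtp1 with Tgtp2. Irgm2 was above Irgm1 in each control library but only in replicate 1 of the resistant libraries. Tgtp1 and Tgtp2 could not be ranked in either group. Exon length was the union over all isoforms, which lowers the level per kilobase of genes with long rare isoforms.

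Within the control group, replicate 1 was above replicate 2 in all 7 members, by 0.22 (Ifi47) to 1.44 (Tgtp1) log2 units. Control replicate 1 was the higher one in 53.1% of all tested genes, and 27.9% of tested genes had a gap in that direction of at least 0.22. The resistant libraries showed no shared direction: Irgm1, Igtp, Iigp1, Ifi47 and Tgtp2 were lower in resistant replicate 1, and Irgm2 and Tgtp1 higher. Leaving out either control library left the log2 fold change of Irgm1 between −1.71 and −1.45 and that of Iigp1 between −4.34 and −3.75.

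The other IRG genes of the mouse gave a like picture, with an exception. A fixed list of 16 symbols had 10 in the table, of which 7 were tested and 4 were lower, 2 of these 4 (Gm4951 and F830016B08Rik) having reached the minimum only through the controls. Gm12250 encodes Irgb10, an effector known from Chlamydia inclusions and from cytosolic bacteria. It had 31.6 and 32.2 normalized counts in the resistant libraries against 336 and 254 (log2 fold change −3.16 ± 0.25, limma adjusted p = 0.00061). Both resistant libraries of Gm12250 lay at about the same level, far below the controls. Gm4951 (Ifgga2) had 7.13 and 8.58 against 292 and 185 (−4.72 ± 0.34, limma adjusted p = 0.000486). F830016B08Rik (Ifgga4) had 3 and 2 reads against 137 and 61, a count ratio of 37.3 with a 95% exact interval of 15.7 to 116. Gm4951 and F830016B08Rik lie beside Iigp1 on chromosome 18, and their fold changes were of its size. Gm4841, which lies in the same group, had no read in the resistant libraries and 14 and 4 in the controls, so that it was at least 2.79-fold lower if each resistant library is set to a floor of 3 reads. 9930111J21Rik2 changed by −1.60 ± 0.31 (limma adjusted p = 0.0208). Its adjusted p was 0.166 without resistant replicate 1 and 0.0971 with no filter. It shares 56.1% of its 50-base stretches with 9930111J21Rik1, so reads of these genes are uncertain too. Gm12185 (−1.52 ± 0.43, limma adjusted p = 0.0683) and 9930111J21Rik1 (−0.996 ± 0.41, limma adjusted p = 0.174) did not pass. Gm12185 passed without control replicate 2 (−1.84), in a fit where far more genes passed over the whole table than in the main fit. Gm5431 had 4.08 and 0 normalized counts against 6.72 and 5.04 and was not tested, and Irgc1, the testis form, had no read. Irgq, a divergent family member that is not interferon-inducible, had 2794 and 3106 against 2661 and 2914 (0.08 ± 0.12, 95% interval −0.19 to 0.35, limma adjusted p = 0.704), with groups that overlapped.

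The IRG genes sit in groups on the genome. On chromosome 11, 11 of them (6 members) lie in 2 blocks within 9.4 Mb, with 9.1 Mb between Ifi47 and Igtp, and on chromosome 18, 4 of them (1 member, Iigp1) lie within 0.2 Mb. To see whether the genes between and beside them moved too, the tested genes of no IRG type within 250 kb of a member were read. Of 23, 2 were lower, a share above the 4.73% of all tested genes called lower, though on too few genes to compare the shares. The median log2 fold change of the 23 was −0.04. The 2 were Olfr56 (−2.19 ± 0.28, limma adjusted p = 0.00444), which shares exon bases with Ifi47, and BC023105 near Iigp1 (−3.20 ± 0.53, limma adjusted p = 0.0115), a RefSeq pseudogene that reached the minimum only through the controls and in which 6.15% of the 50-base stretches of Gm4841 also occur. The remaining 21 spanned −1.02 to 0.38. The nearest others were Trim7, on the far side of Irgm1 (0.08 ± 0.25, limma adjusted p = 0.883), and Mrpl22, beside Gm12250 (−0.04 ± 0.20, limma adjusted p = 0.913). In each block the called genes were thus IRG genes or genes that share sequence with one. Shared sequence did not mark the called genes alone. Psme2b shares 41 exon bases with 9930111J21Rik1 on the same strand and was not called (−0.21 ± 0.26, limma adjusted p = 0.648).

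**Figure D4:**
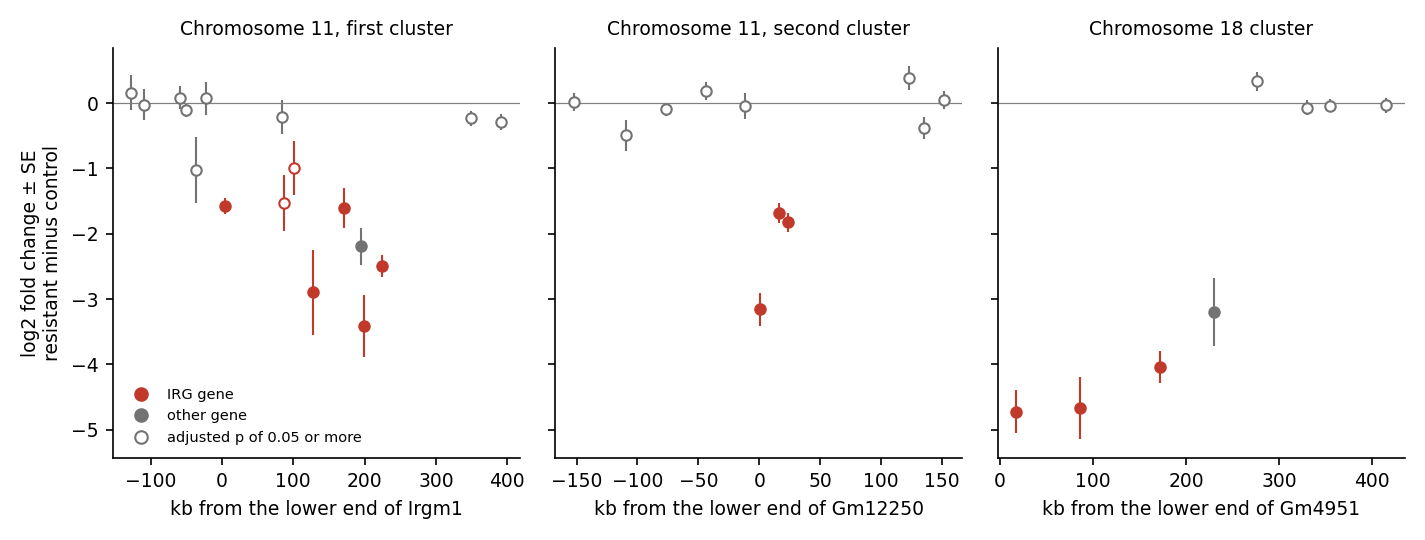
Log2 fold change (resistant minus control, with standard error) of tested genes in position order around the IRG blocks, by distance in kilobases from the first IRG gene of the block; open circles have an adjusted p of 0.05 or more. IRG genes (red) lie at −0.996 or lower, whereas of the 23 other tested genes within 250 kb (grey) all but Olfr56 and BC023105 lie between −1.02 and 0.38.

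Genes known to act upstream of the family or beside it were read from fixed lists. The counts called lower in these lists stand beside 4.73% of all tested genes. The guanylate-binding proteins, the large interferon-inducible GTPases that join IRG proteins at vacuoles, had 9 of 11 tested members lower, with a median log2 fold change of −1.65, against −1.69 for the IRG regulators and −3.16 for the effectors. Gbp3 (−2.72 ± 0.16) fell the most of the 4 with the smallest p, ahead of Gbp7 (−1.64 ± 0.13), Gbp4 (−1.55 ± 0.14) and Gbp9 (−1.48 ± 0.12). Of 20 interferon genes none reached the minimum and 13 had no read. Ifng, which encodes the main inducer of the family, had 6 reads in resistant replicate 1 and none in the other 3 libraries, and Ifnb1 had 5 and 1 reads in the resistant libraries against 10 and 8. The ligands' RNA was thus too sparse for any comparison beside the members' fall.

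Of the genes of interferon gamma receptor signalling, the receptors, their kinases and Irf1 are given. The receptor chains Ifngr1 (−0.40 ± 0.12, limma adjusted p = 0.0839) and Ifngr2 (−0.23 ± 0.11, 0.226) did not pass, nor did the kinases Jak1 (−0.20 ± 0.11, 0.279) and Jak2 (−0.34 ± 0.13, 0.155). Irf1, an interferon-induced factor that binds ISRE, stood at 5805 and 5867 against 6804 and 7996 (−0.34 ± 0.12, limma adjusted p = 0.113). The log2 fold changes of these 5 were all nearer 0 than that of any IRG member, but some calls depended on the control libraries. Without control replicate 2, limma called Ifngr1 (−0.48, adjusted p = 0.00434) and Jak2 (−0.50, adjusted p = 0.00051) lower, and without control replicate 1 it called Irf1 lower (−0.45, adjusted p = 0.00217). Of 7 genes of type I interferon signalling 4 were lower: Irf7 (−2.33 ± 0.18, limma adjusted p = 0.000587), the inhibitor Usp18 (−2.07 ± 0.15, 0.000531), Stat2 (−1.21 ± 0.11, 0.000936) and Irf9 (−1.16 ± 0.12, 0.00163). Stat2 and Irf9, parts of the complex that binds ISRE, thus fell beside the IRG members.

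Atg8-family genes and their conjugation machinery help Irgm proteins and effectors to find their membranes. Of 11 tested, limma called 0 in either direction, which is near the shares of all tested genes (4.73% lower and 5.32% higher). Of the 11, 1 had an unadjusted p under 0.05, and the limma voom fit on reads also called 0. Their log2 fold changes spanned −0.41 to 0.31, with a median of 0.00. Of 4 genes that mark IRG-coated vacuoles with ubiquitin or bind it, Trim21 (−0.84 ± 0.12, limma adjusted p = 0.00765) and Rnf213 (−0.68 ± 0.12, 0.0135) were lower. Both calls were lost when either resistant library was left out, at adjusted p-values of 0.0524 and 0.0922 for Trim21 and 0.148 and 0.0556 for Rnf213, while the log2 fold changes were −0.90 and −0.79 for Trim21 and −0.60 and −0.77 for Rnf213. Rnf213 also had an adjusted p of 0.0753 with no filter.

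**Figure D5:**
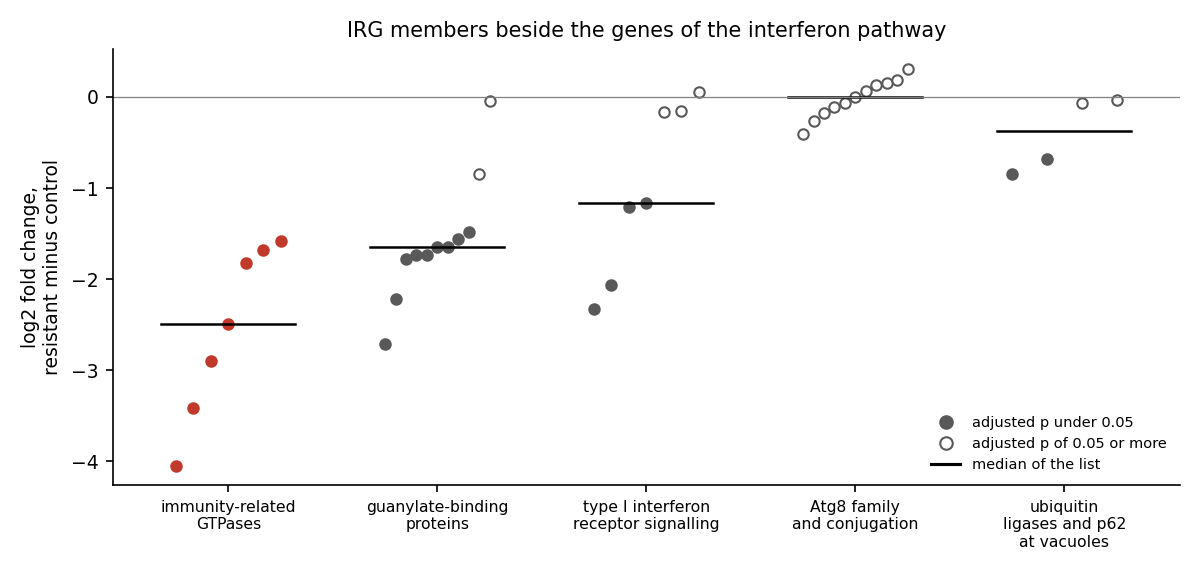
Log2 fold changes (resistant minus control) of the tested genes of each list, 1 point per gene, with the list's median as a bar. The interferon gamma receptor signalling list is not drawn. Open circles have an adjusted p of 0.05 or more. The median of the 7 IRG members (red, −2.50) lies lowest, those of the guanylate-binding proteins (−1.65) and type I signalling genes (−1.16) follow, and the Atg8 list is centred on 0.00. Single genes of the other lists, such as Gbp3 and Irf7, lie below the IRG regulators.

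The 5 tested genes whose centred log2 values over the 4 libraries lay closest to the members' mean profile were P3h2 (root mean square distance 0.0308 log2 units), Cpsf4l (0.0678), Misp (0.0695), Cldn7 (0.07) and Gbp3 (0.0906). Of these Gbp3 is an interferon-induced GTPase, P3h2 is a collagen prolyl hydroxylase and Cldn7 a tight junction protein, the last tested only through its control level. Over 4 libraries in 2 groups such a distance mostly measures the size of the group difference. Among the members, Ifi47 lay nearest the family mean (0.13) and Iigp1 farthest (0.741), since it fell more than the mean.

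The labelled cell type was checked on marker lists. Krt8, Krt18, Cdh1 and Vim were abundant in all 4 libraries, Krt5 and Krt14 had no read, and of 9 mammary carcinoma markers 1 (Epcam) was lower and 2 (Krt7 and Krt19) were higher. All 9 T and NK cell markers stayed under 5 normalized counts, including the CD3 chains, as did Ptprc (CD45), so the defining markers of the lymphocytes that make interferon gamma were at or near 0 in every library. The macrophage list summed to 11308 to 11664 in the resistant libraries against 3738 to 6818 in the controls, opposite in direction to the IRG members. In that list Cd68 and Mertk were higher, whereas 6 of 10 (Adgre1, C1qa, C1qb, C1qc, Fcgr1 and Itgam) stayed under 5. The dendritic cell list moved with the IRG members only through Zbtb46, at 57.1 to 103 against 327 to 335. Flt3, the other tested gene of that list, lay higher in the resistant libraries (12.2 and 31.1 against 5.76 and 6.05, limma adjusted p = 0.112). Clec9a, Xcr1 and Siglech had no read and Itgax stayed under 5. Neutrophil markers (393 to 396 against 421 to 800, with 4 of 5 under 5 and S100a8 the rest) and endothelial markers (18.3 to 21.5 against 26.2 to 34.6, with Cdh5 and Kdr under 5) also summed lower. Their only tested genes, S100a8 and Pecam1, were not called (limma adjusted p = 0.255 and 0.547). The part of these 3 lists in the members' fall was not tested. The general leukocyte list (172 to 211 against 114 to 177) and the fibroblast list (7139 to 8492 against 6408 to 9282, Dcn lower) overlapped between the groups. The summed B cell markers (6.44 to 7.13 against 4.03 to 4.80, with 3 of 4 under 5) lay above the controls. So did the summed pericyte markers (482 to 583 against 299 to 388), through Pdgfrb. Within the pericyte list Abcc9 went the other way (6.11 and 3.22 against 21.1 and 12.1, limma adjusted p = 0.0984), tested only through its control level. Rgs5 in that list changed by −0.05 ± 0.26.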

How the data were processed

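Bulk RNA sequencing libraries of 2 resistant and 2 control tumors were analysed. The authors deposited log2 values, log2(count divided by a size factor, plus 1), made with STAR, DESeq2 and mm10 per the submitters' processing notes; versions, the annotation and the use of strand are not given in the sources used here. The values fell on whole reads in every library (tolerance 0.01 reads), which gave the reads per gene. The 14238 genes averaging 10 or more normalized counts were tested in R 4.3.3 by limma 3.58.1 (eBayes with trend after lmFit, no block) on the deposited log2 values, which carry a pseudocount of 1, and adjusted by Benjamini-Hochberg at 0.05. Symbols and exon lengths are from GENCODE M21 (GRCm38) and promoters from RefSeq GRCm38.p6. Unlogged values had been planned for, with an equal transformation. The fit was tested on simulated reads.

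The members, lists and tests were chosen with earlier results of these data known. Named were all members, the other tested IRG genes and up to 4 called genes with the smallest p per list. Set receptor and factor genes, the 5 closest profiles and the 3 nearest neighbours were named too. Marker genes, BC023105 and Psme2b were named after their values were seen. The remaining genes and the counts of the interferon gamma signalling list are not reported here. The alternatives were other pseudocounts, filters and scalings, robust moderation, limma voom on reads, replicate blocks, summing Tgtp1 with Tgtp2 and leaving out each library. Intervals (95%) on reads and the floor of 3 reads cover counting error only, because PCR copies cannot be told from independent molecules without molecular identifiers.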

Additional observations from a re-analysis of the deposited data

How the results depend on the processing

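Every IRG member kept a negative log2 fold change under every alternative run. Of the 7 members, 6 were called lower with a pseudocount of 10, 5 with no filter, 6 with a minimum mean of 50 (Tgtp1 was not tested there), 7 with limma voom, and 6 to 7 when 1 library was left out. Among the members, calls were lost in Tgtp1 and Tgtp2 only. Over all genes, 1432 were called, against 311 with no filter and 414 to 4067 when 1 library was left out: 436 and 414 when resistant replicate 1 or 2 was the one left out, 3203 and 4067 when it was control replicate 1 or 2. Such a fit takes the spread of the lone library from the other group. The effectors' median minus the regulators' median was −0.85 with a pseudocount of 10, and −1.83 to −1.21 when 1 library was left out. With the replicate number as a block 7 members and 1213 genes were called, and Gm12185 also passed (limma adjusted p = 0.0439); the numbers only name samples, and the same-numbered deviations correlated at −0.357. With the numbers crossed, an alternative added after seeing the data, 4584 genes were called. Depth limits Tgtp1 and the IRG genes with fewer than 10 reads in a library. No group of 4 or more libraries exists in which a single library could be tested as standing apart.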

Other observations

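Outside the IRG family, calls were counted among genes whose RefSeq promoter holds the ISRE letters found before Irgm1, Irgm2, Igtp, Tgtp1 and Tgtp2, as a description with no test. Of 382 tested genes with an ISRE match, 63 (16.5%) were called lower by limma and 11 (2.88%) higher, against 452 (4.43%) lower and 518 (5.07%) higher of the 10208 tested genes with a promoter in the table. With a GAS match, 42 of 855 (4.91%) were lower and 41 (4.8%) higher, close to the share of all promoters. With both matches, 9 of 48 (18.8%) were lower and 3 (6.25%) higher. Genes with an ISRE match had a median log2 fold change of −0.06.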
